A study of Rattus norvegicus with 21 samples.

Results

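Drug metabolising enzymes are the proteins that oxidise foreign chemicals, steroids, fatty acids and other lipids, and then join them to a soluble group so that they can leave the cell. They were taken here as every probe whose gene symbol in the array's annotation names a cytochrome P450 of families 1 to 4, a UDP glucuronosyltransferase (UGT) of family 1 or 2, a sulfotransferase (SULT), or a glutathione S-transferase (GST) of the alpha, mu, pi, theta, kappa, omega or zeta class. The rule found 59 probes for 55 genes among the 5376 probes of the array, 4962 of them measured on 1 or more arrays. The 59 comprise 32 P450 probes for 28 genes, 8 UGT probes, 9 SULT probes and 10 GST probes, and all 59 were measured on at least 1 array. The rule reads symbols and no measured value, but the members were chosen with earlier results of these data known.

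Rat spinal cord RNA was compared with pooled culture RNA on 21 arrays with 2 channels each, in 7 groups of 3. In 5 groups the cord was kept in culture for 4 hr with a treatment. The CKIN, MP and Acet (acetaminophen) groups were set against pooled PBS-treated cultures, the Indo (indomethacin) group against pooled ETOH-treated cultures and the NS398 group against pooled DMSO-treated cultures. The Injured 4 hr group holds unpooled PBS-treated 4 hr cultures, so that both channels held RNA of the same kind, and the Uninjured group holds freshly dissected cord, each against the PBS pool. The titles of the CKIN, MP and Acet samples name their PBS reference without the word pooled, which the Injured 4 hr titles carry. Changes of these treatments against Injured 4 hr take the PBS reference to be the same pool. A difference between pools could not be told apart from a treatment change. CKIN and MP are printed as the labels give them. The labels read here name no strain, age, dose or cut of the cord. The labels do not say whether arrays of a group came from separate animals or cultures, so p-values measure the spread between these samples, which may be technical.

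P450s place an oxygen atom in their substrates with electrons that reach them through P450 reductase and cytochrome b5. UGTs, SULTs and GSTs add glucuronic acid, sulfate and glutathione. Liver is where most of these families are best known. In nervous tissue GSTs are found in glia and other cells, Sult4a1 is a brain-enriched sulfotransferase without a settled substrate, and several P450s act on fatty acids and steroids.

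Each value below is a log2 ratio of the sample to its pooled culture RNA, less the median of its array. The order of names in the labels makes sample over pool the likely direction of the deposited ratios, which is not stated. Were it the other way, every sign, rise and fall given here would turn. A value of 1 is therefore a ratio 2-fold above that of the median probe. The ratios do not give the amount of an enzyme's RNA, so that no probe is ranked against another by abundance, and the cell types of the cord cannot be checked from a level. In bulk tissue fewer cells of a type and less RNA per cell cannot be told apart. Centring matters because the arrays' median deposited ratio lay between -2.26 and -2.12 in Injured 4 hr and between -4.12 and -3.09 in Uninjured, but between -1.62 and 0.70 on the arrays of the 5 treatments. Of the 15 treatment arrays 10 had over 1100 missing spots, and 36 to 59 of the 59 probes were measured per array. Where both channels held PBS culture RNA, 1073 of 4865 probes (22.1%) and 7 of the 59 enzyme probes still differed from 0 in the limma test.

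**Figure D1:**
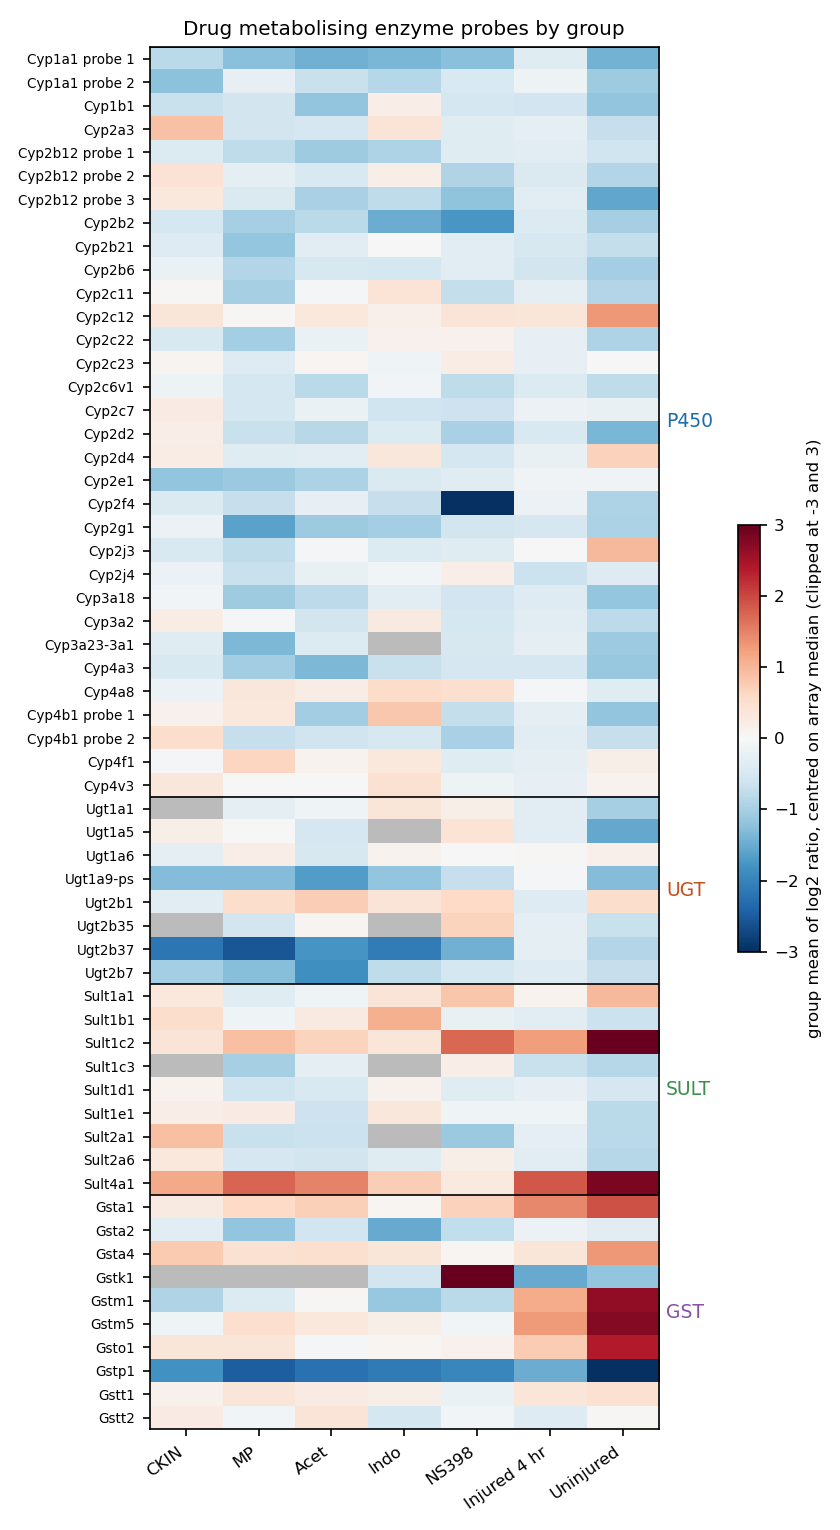
Group means of the centred log2 ratio (colour, clipped at -3 and 3) for the 59 probes (rows, by enzyme class) in the 7 groups (columns); grey marks groups with no measured array. P450 rows are mostly blue in MP, Acet, NS398, Injured 4 hr and Uninjured and of both colours in CKIN and Indo, Gstm1, Gstm5, Gsto1, Sult1c2 and Sult4a1 are red in Uninjured, and Ugt2b37 is blue in every treatment.

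The P450s as a class lay below the median probe on every MP, Acet, NS398, Injured 4 hr and Uninjured array, and the GSTs lay above it on every Injured 4 hr and Uninjured array. The P450 median was between -0.34 and 0.33 on the CKIN arrays, between -0.74 and -0.50 on the MP arrays, between -0.87 and -0.40 on the Acet arrays, between -0.53 and 0.0015 on the Indo arrays and between -0.49 and -0.37 on the NS398 arrays. It was between -0.30 and -0.28 on the Injured 4 hr arrays and between -0.84 and -0.68 on the Uninjured arrays. The GST median was 0.37 to 0.67 in Injured 4 hr and 0.68 to 1.48 in Uninjured. UGT medians were between -0.30 and -0.21 in Injured 4 hr and between -0.92 and -0.75 in Uninjured, and SULT medians between -0.21 and 0.03 in Injured 4 hr and between -0.76 and -0.51 in Uninjured. The 3 arrays of each group thus did not overlap between Injured 4 hr and Uninjured for any of the 4 classes, for GSTs only narrowly.

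**Figure D2:**
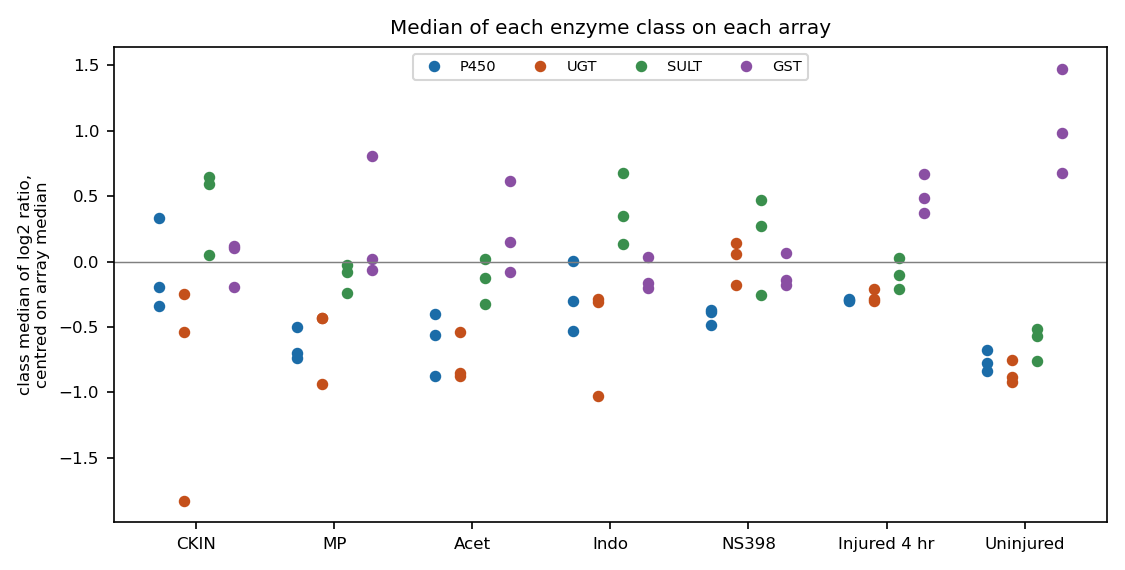
Median centred log2 ratio of the measured probes of each enzyme class (colour) on each of the 21 arrays (points), by group. P450, UGT and SULT medians lie higher in Injured 4 hr than in Uninjured, and GST medians lie lower.

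Cultured cord was first compared with fresh cord. Of 58 probes tested, 1 rose and 4 fell in Injured 4 hr relative to Uninjured (8.62%), beside 690 of 4822 among all probes (14.3%; 0.809% higher and 13.5% lower). The 4 that fell were the glutathione transferases Gsto1, Gstm1 and Gstm5 and the sulfotransferase Sult1c2, and the 1 that rose was Ugt1a5. None of the 32 P450 probes passed, and 7 of them had an unadjusted p under 0.05, beside 1398 of all 4822 probes. These changes are relative to the arrays' medians. Their p-values use a spread taken from all 7 groups, and the treatment arrays spread more widely than these 2 groups. In a fit of these 2 groups' arrays alone 26 enzyme probes were called, 15 higher and 11 lower. The share of all probes called in that fit is not given here. In the deposited ratios, where the median change over all probes tested was 1.47, 39 enzyme probes were called higher and 0 lower, beside 50.4% of all probes called.

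Gsto1 is the omega class transferase, which reduces dehydroascorbate and thiol adducts. Its centred ratio was 0.81, 0.71 and 0.79 on the Injured 4 hr arrays, against 2.70, 2.40 and 2.06 on the Uninjured arrays. The groups did not overlap, and Gsto1 fell by 1.62 ± 0.35 (SE) on the log2 scale (limma adjusted p = 0.00341). It was called in each of the 6 omissions of a single array. In the deposited ratios its change was -0.09.

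Gstm1 and Gstm5 belong to the mu class, which conjugates glutathione to electrophilic products of oxidation. Gstm1 was at 1.15, 1.05 and 1.12 in Injured 4 hr, against 2.75, 2.70 and 2.50 in Uninjured. Gstm5 was at 0.95, 1.56 and 1.33 in Injured 4 hr, against 2.48, 2.72 and 3.05 in Uninjured. Every cultured array lay below every fresh one for both. Gstm1 fell by 1.54 ± 0.46 (limma adjusted p = 0.0267) and Gstm5 fell by 1.47 ± 0.42 (limma adjusted p = 0.0228). Gstm1 missed the threshold in each of the 6 single-array omissions (change between -1.62 and -1.49, adjusted p between 0.0551 and 0.0828). Gstm5 missed it without Injured 4 hr replicate 1 or 3 or Uninjured replicate 2 or 3, with changes between -1.61 and -1.30 over its 6 omissions and a highest adjusted p of 0.102. Their deposited ratios differed by -0.02 for Gstm1 and 0.06 for Gstm5.

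Sult1c2 had centred ratios of 1.36, 1.09 and 1.29 in Injured 4 hr, against 2.43, 3.27 and 3.21 in Uninjured. It fell by 1.72 ± 0.53 (limma adjusted p = 0.0329) without overlap. The call held only without Uninjured replicate 1 among its 6 single-array omissions, whose changes lay between -1.99 and -1.57 and whose adjusted p values lay between 0.0343 and 0.115. Ugt1a5, one of the UGT1 enzymes that share their last exons, was at -0.60, -0.26 and -0.12 in Injured 4 hr, against -1.96, -1.37 and -1.29 in Uninjured. It rose by 1.21 ± 0.36 (limma adjusted p = 0.039), and missed the threshold in all 6 omissions (change between 1.00 and 1.35, adjusted p between 0.0638 and 0.137).

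Because Gsto1, Gstm1 and Gstm5 fell together and Ugt2b37 was called in 4 of the 5 treatment comparisons, their promoters are printed, from RefSeq (GRCr8), 250 bases before to 50 bases after the annotated start. Capitals mark matches on either strand to the antioxidant response core TGACNNNGC, the dioxin response core GCGTG and the glucocorticoid half-site TGTTCT. Gstm1 lies at chr2:198343334-198343633 on the minus strand and Gstm5 at chr2:198219519-198219818 on the plus strand. Gsto1 lies at chr1:256662281-256662580 and Ugt2b37 at chr14:21171886-21172185, both on the plus strand.
Gsto1: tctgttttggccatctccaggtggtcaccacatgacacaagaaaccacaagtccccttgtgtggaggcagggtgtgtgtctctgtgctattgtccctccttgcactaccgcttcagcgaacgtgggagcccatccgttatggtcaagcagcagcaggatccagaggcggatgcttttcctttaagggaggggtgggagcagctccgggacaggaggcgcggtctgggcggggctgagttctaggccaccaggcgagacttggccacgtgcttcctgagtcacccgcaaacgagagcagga
Gstm1: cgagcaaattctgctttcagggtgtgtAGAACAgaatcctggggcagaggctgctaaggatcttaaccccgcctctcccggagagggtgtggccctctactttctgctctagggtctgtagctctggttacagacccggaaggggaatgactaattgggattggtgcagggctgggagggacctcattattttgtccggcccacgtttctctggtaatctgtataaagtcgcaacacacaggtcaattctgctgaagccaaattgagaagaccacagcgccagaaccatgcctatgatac
Gstm5: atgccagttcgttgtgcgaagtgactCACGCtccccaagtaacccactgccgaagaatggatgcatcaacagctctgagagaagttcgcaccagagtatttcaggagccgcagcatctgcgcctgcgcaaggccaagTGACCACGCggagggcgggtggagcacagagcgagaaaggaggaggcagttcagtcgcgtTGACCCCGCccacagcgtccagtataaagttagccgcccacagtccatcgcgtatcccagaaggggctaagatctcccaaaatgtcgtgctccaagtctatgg
Ugt2b37: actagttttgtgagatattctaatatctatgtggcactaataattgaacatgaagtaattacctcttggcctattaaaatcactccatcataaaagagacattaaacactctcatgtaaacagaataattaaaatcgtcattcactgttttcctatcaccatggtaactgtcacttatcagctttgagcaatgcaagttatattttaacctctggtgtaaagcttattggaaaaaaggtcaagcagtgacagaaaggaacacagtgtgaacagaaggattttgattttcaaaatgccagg

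Gstm5 held 2 TGACNNNGC matches and 2 GCGTG matches, and the downstream GCGTG match overlaps a TGACNNNGC match. Gstm1 held 1 TGTTCT match, and Gsto1 and Ugt2b37 held none of the 3 motifs in these windows. A promoter was at hand for 45 of the member genes. TGACNNNGC was found in 5 of them (11.1%) and in 12.2% of all 27457 promoters of this length. GCGTG was found in 8 (17.8%) and in 31.1% of all promoters. TGTTCT was found in 14 (31.1%) and in 20.1% of all promoters. A match is a description of the letters and not a binding site.

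None of the 5 calls held after quantile normalization or in the corrected ratios. For these, each array's own loess curve on the mean Injured 4 hr ratio was taken off, and then its own source plate medians. That also takes off any real change that follows the Injured 4 hr ratio, so a lost call cannot tell a technical change from a real one. The changes shrank too. Corrected changes were -0.54 for Gsto1, -0.67 for Gstm1, -0.59 for Gstm5, -0.63 for Sult1c2 and 0.63 for Ugt1a5. After quantile normalization the 4 that fell were at -0.38 for Gsto1, -0.33 for Gstm1, -0.29 for Gstm5 and -0.48 for Sult1c2, while Ugt1a5 stayed at 1.21 (limma adjusted p = 0.522). In the corrected ratios 1 of the 58 was called, the steroid-conjugating enzyme Ugt2b1 (change -1.11, limma adjusted p = 0.0199, beside 7.15% of all probes), which had a centred change of -0.92 ± 0.33 (adjusted p = 0.0686).

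**Figure D3:**
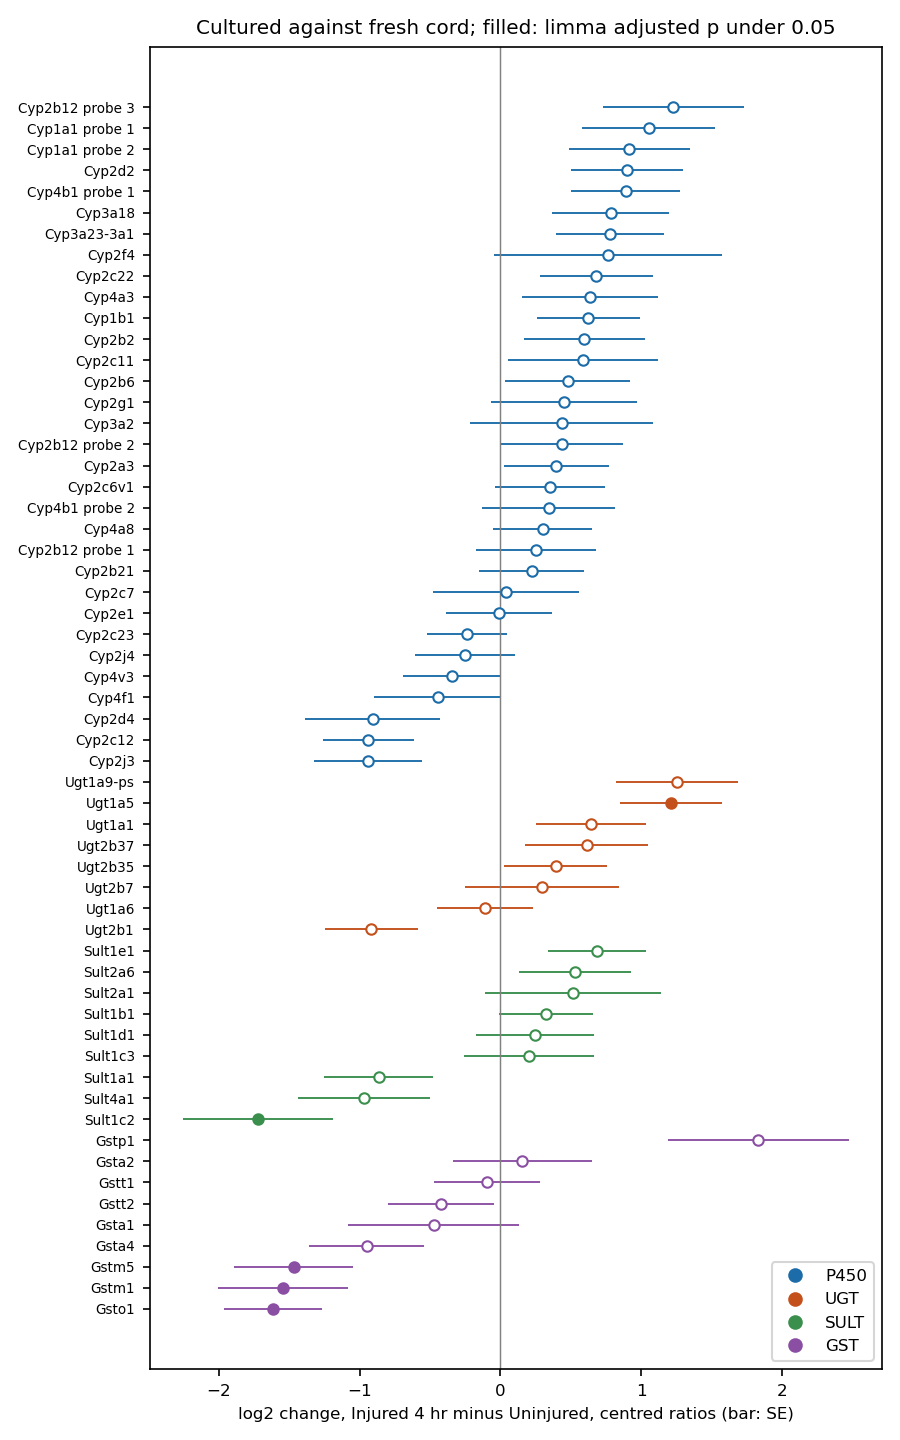
Log2 change of the centred ratio, Injured 4 hr minus Uninjured, with its SE for the 58 probes tested, by class; filled points passed the limma threshold. Gsto1, Gstm1, Gstm5 and Sult1c2 lie furthest to the left, and most P450 points lie right of 0 with open symbols.

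No P450 passed on its own in the fit of all arrays, while 24 of 32 had a positive change and their median change was 0.44, against -0.04 over all 4822 probes. Of the corrected changes 23 of 32 were positive with a median of 0.23, against 0.02 over all probes. In 13 of the 32 every Injured 4 hr array lay above every Uninjured array and in 4 every array lay below. The 12 liver marker probes had a median centred change of 0.41, near that of the P450s. Their array medians were between -0.34 and -0.08 in Injured 4 hr and between -0.84 and -0.70 in Uninjured. The shift is therefore not read as particular to P450s. Over all enzymes 21 of 58 lay wholly above (36.2%), beside 21.1% of all probes, and 13 wholly below (22.4%), beside 32.9% of all probes. For GSTs the median change was -0.47, with 1 of 9 wholly above and 5 wholly below. Of the 32 P450 probes 25 came from 1 source plate of the array. On that plate the P450 median was between -0.37 and -0.29 in Injured 4 hr and between -0.83 and -0.72 in Uninjured. The other 69 probes of the plate had medians between -0.08 and 0.13 in Injured 4 hr and between 0.52 and 0.86 in Uninjured.

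The members with the widest changes that did not pass were in several classes. Gstp1, the pi class transferase, had -1.35 and -1.64 on the 2 Injured 4 hr arrays that measured it, against -1.75, -3.33 and -4.91 in Uninjured (1.84 ± 0.64, limma adjusted p = 0.0589). Its Uninjured arrays span a wide range, and without Uninjured replicate 1 the change was 2.62 with an adjusted p of 0.00654. Ugt1a9-ps, annotated as a pseudogene of the UGT1 locus, had -0.10, -0.35 and 0.30 in Injured 4 hr, against -0.98, -1.80 and -1.13 in Uninjured (1.26 ± 0.43, adjusted p = 0.0552).

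Cyp1a1, the P450 that the aryl hydrocarbon receptor induces, has 2 probes, with changes of 1.06 ± 0.47 (adjusted p = 0.142) and 0.92 ± 0.43 (adjusted p = 0.169), each over 2 Uninjured arrays. The arachidonic acid epoxygenase Cyp2j3 differed by -0.94 ± 0.39 (adjusted p = 0.109) and Cyp2c12, known as a female-specific liver P450 of the rat, by -0.94 ± 0.32 (adjusted p = 0.0553). Sult4a1 was at 1.92, 1.96 and 1.69 in Injured 4 hr, against 2.97, 2.85 and 2.65 in Uninjured (-0.97 ± 0.47, adjusted p = 0.174). Gsta1, an alpha class transferase, was at 1.46, 1.76 and 1.07 in Injured 4 hr, against 3.06, -0.52 and 3.18 in Uninjured. Its Uninjured replicate 2 stands apart. The change was -0.47 ± 0.61 (adjusted p = 0.629) with that array and -1.69 without it (adjusted p = 0.00733), and it was 0.10 without Uninjured replicate 1 and 0.16 without replicate 3.

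Enzymes that work beside the members were read from lists. Of 4 redox partner probes Cyb5a (cytochrome b5, change -1.29) and Cyb5r3 (its reductase, -1.07) fell. Of 14 probes for other conjugating enzymes and cofactor supply, Gclm, a subunit of the enzyme that starts glutathione synthesis, fell by 1.72 and the microsomal transferase Mgst1 fell by 1.38. Of 30 probes for other oxidising, reducing and hydrolysing enzymes 4 fell, namely Akr1b1 (aldose reductase, -1.84), Aldh9a1 (-1.28), Maob (monoamine oxidase B, -1.27) and Aldh3a2 (-1.02). Of 26 transporter probes the peptide transporter Slc15a2 fell by 1.59, of 12 probes for P450s of other families Cyp51 of sterol synthesis fell by 1.64, and 0 of 17 receptor and regulator probes passed. None of these lists held a probe that rose. Over all 4822 probes 13.5% were called lower and 0.809% higher, so these counts are not read as particular to the lists. Slc15a2 (-1.33) kept its call in the corrected ratios and the other 9 lost theirs, while Cyb5b, another cytochrome b5, fell by 1.16 and the aldo-keto reductase Akr7a3 rose by 1.01.

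Cell type markers moved in the same comparison. Of 9 neuron marker probes 5 fell (median change -1.89), with array medians of 1.66 to 1.86 in Injured 4 hr and 3.61 to 4.03 in Uninjured. Of 7 astrocyte marker probes 4 fell (median change -1.55), with array medians of 1.77 to 2.01 in Injured 4 hr and 3.12 to 3.36 in Uninjured. Oligodendrocyte marker medians were 1.76 to 2.03 in Injured 4 hr and 2.56 to 2.91 in Uninjured, where 1 of 7 fell. None of 5 microglia and macrophage, 5 endothelium, 7 fibroblast and 5 blood probes passed, and 1 of 12 liver probes fell. With corrected ratios 4 neuron and 2 astrocyte probes fell, 0 oligodendrocyte and 0 liver probes passed, and 1 microglia and macrophage, 1 endothelium and 2 blood probes rose. The part of cell composition in the enzyme changes was not tested.

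CKIN cultures were compared with Injured 4 hr cultures. Of 46 probes tested, 0 rose and 5 fell (10.9%), beside 748 of 3736 probes (20%; 18.5% lower). They were Gstm1, Gstm5, Ugt2b37, Ugt1a9-ps and Cyp2e1. Against the lower median of all probes in this comparison (-0.38) the members' median change was 0.05, and the 25 P450s had a median change of 0.26. That contrast was absent from the corrected ratios, where the median was -0.02 over the members, -0.04 over the P450s (10 positive and 15 negative) and 0.01 over all probes. Every CKIN array lay above every Injured 4 hr array for 7 of the 46 (15.2%), beside 9.9% of all probes, and below for 11 (23.9%), beside 38.5%.

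Gstm1 was at -1.61, -0.07 and -1.02 in CKIN, against 1.15, 1.05 and 1.12 in Injured 4 hr, and fell by 2.01 ± 0.46 (limma adjusted p = 0.0071). Gstm5 was at 0.52, -0.30 and -0.59 in CKIN, against 0.95, 1.56 and 1.33 in Injured 4 hr, and fell by 1.41 ± 0.42 (limma adjusted p = 0.0264). Neither overlapped, and the CKIN arrays spread more widely. Ugt2b37, a rat UGT2B enzyme, was at -2.49, -2.32 and -1.71 in CKIN, against -0.17, -0.31 and -0.31 in Injured 4 hr. It fell by 1.91 ± 0.44 (limma adjusted p = 0.0071). Ugt2b37 and Gstm1 were called in all 6 single-array omissions, but in the corrected ratios Gstm1 was at -0.62 (limma adjusted p = 0.402).

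Ugt1a9-ps was at -1.86, -0.54 and -1.50 in CKIN, against -0.10, -0.35 and 0.30 in Injured 4 hr, and fell by 1.25 ± 0.43 (limma adjusted p = 0.0455). Cyp2e1, the P450 that oxidises ethanol and acetaminophen, was at -1.51, -1.41 and -0.64 in CKIN, against -0.10, -0.20 and -0.05 in Injured 4 hr. It fell by 1.07 ± 0.38 (limma adjusted p = 0.049). Both had no overlap between groups, but their calls were marginal. Cyp2e1 held only without CKIN replicate 3 (changes between -1.35 and -0.91 over the 6 omissions, highest adjusted p 0.129) and Ugt1a9-ps only without CKIN replicate 2 (between -1.63 and -0.97, highest adjusted p 0.159). Gstm5 missed the threshold without Injured 4 hr replicate 2 or 3 or CKIN replicate 2 or 3 (between -1.73 and -1.17, highest adjusted p 0.101).

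All 3 CKIN arrays were among the 10 sparse ones and no Injured 4 hr array was. With sparse arrays as a block 0 of the 46 were called, beside 0.161% of all probes; Ugt2b37 then had a change of -2.11 and Gstm1 of -0.80. In the corrected ratios Ugt2b37 alone was called (-1.96, limma adjusted p = 0.0334, beside 0.749% of all probes), and Gstm5 changed sign (0.12). In the deposited ratios, where the median change over all probes tested was 1.54, Ugt2b37 differed by 0.01 and 35 members were called higher with 0 lower (59.7% of all probes). Quantile normalization gave 2 higher and 3 lower. Astrocyte markers (4 of 7 probes fell; array medians -0.23 to 0.39 in CKIN and 1.77 to 2.01 in Injured 4 hr) and oligodendrocyte markers (4 of 7 fell; -0.18 to 0.40 in CKIN and 1.76 to 2.03 in Injured 4 hr) moved in the same direction. So did 1 of 9 neuron and 1 of 5 fibroblast and meninges probes, while 1 of 9 liver probes rose. After correction 0 astrocyte, oligodendrocyte, fibroblast and liver probes passed, and 1 neuron and 1 blood probe rose. The part of these cell types was not tested.

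Among the listed partners of these enzymes in CKIN, Gsr (glutathione reductase) fell by 1.55 and was the 1 of 9 conjugation and cofactor probes to pass. Of 26 other oxidising and reducing probes Adh7, an alcohol dehydrogenase, rose by 1.88, while aldehyde oxidase Aox1 fell by 1.64 and monoamine oxidase Maoa fell by 1.29. Cyp51 fell by 1.70 (1 of 11 P450s of other families). None of 4 redox partner, 15 receptor and 18 transporter probes passed, beside 18.5% of all probes called lower. All 5 of these calls were lost in the corrected ratios, where Adh7 was at 1.62, Gsr at -1.16, Aox1 at -1.08, Cyp51 at -0.16 and Maoa at -0.10, and 0 partner probes were called.

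**Figure D4:**
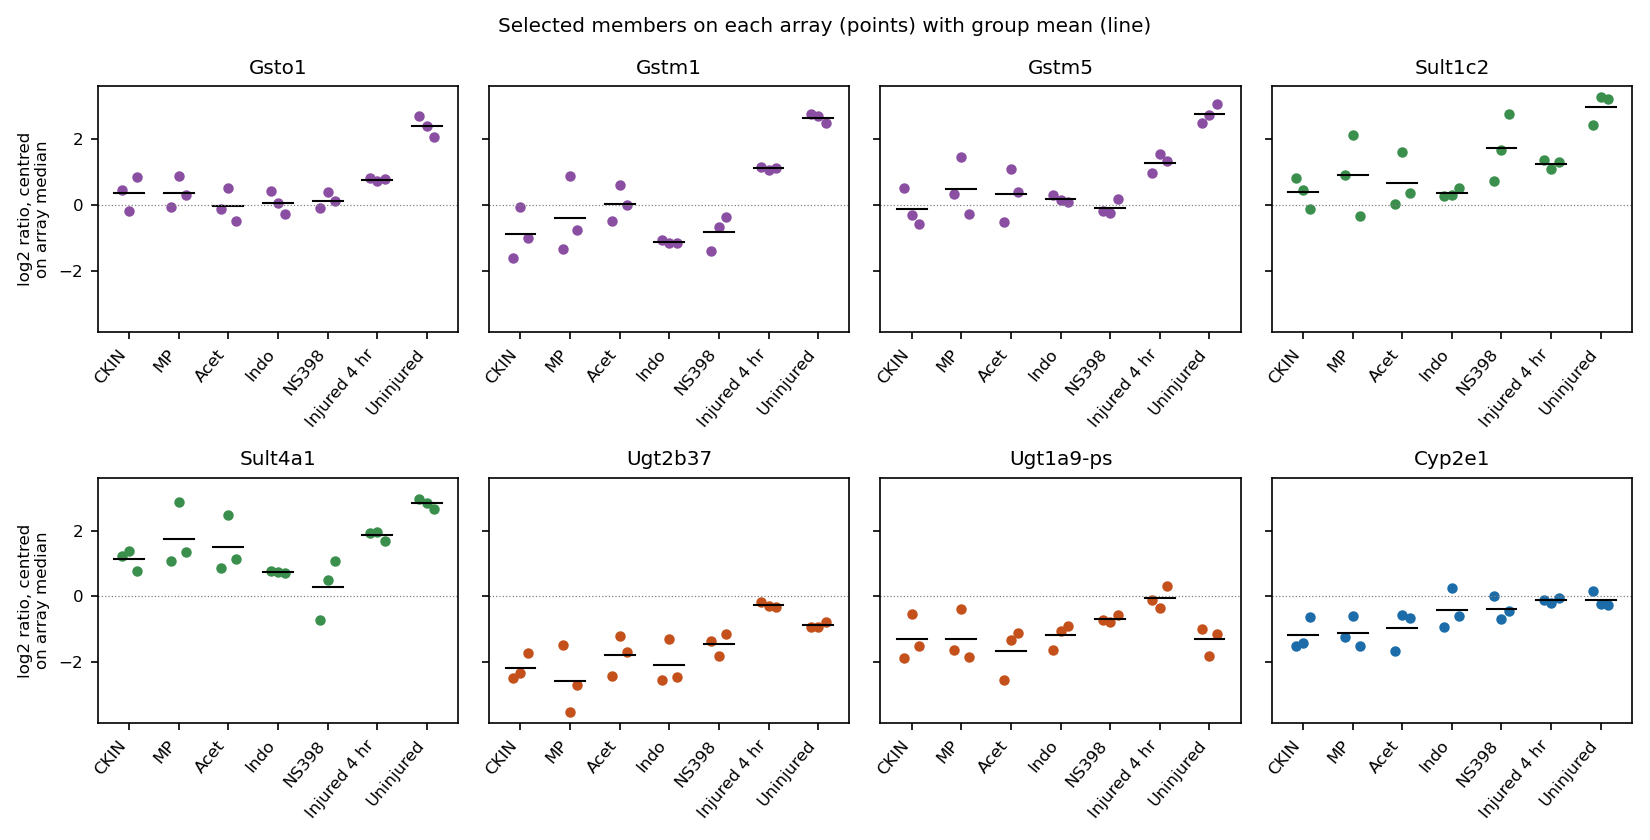
Centred log2 ratio of 8 members on each array (points) with the group mean (line), in the 7 groups. Ugt2b37 lies below -1 on every treatment array and above that on all Injured 4 hr and Uninjured arrays; Gsto1, Gstm1, Gstm5 and Sult1c2 are highest on average in Uninjured.

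MP cultures had 1 of 55 enzyme probes called against Injured 4 hr (1.82%), beside 90 of 4391 probes (2.05%), and it was lower. Ugt2b37 was at -1.49, -3.52 and -2.70 in MP, against -0.17, -0.31 and -0.31 in Injured 4 hr, and fell by 2.31 ± 0.44 (limma adjusted p = 0.013). The MP arrays all lay below the Injured 4 hr arrays and spread widely among themselves. Ugt2b37 missed the threshold without MP replicate 3 (-2.24, adjusted p = 0.0927) and without Injured 4 hr replicate 1 (-2.26, adjusted p = 0.0514), replicate 2 (-2.33, 0.0604) or replicate 3 (-2.33, 0.0718). It was not called in a fit of these 2 groups' arrays alone. It was called in the corrected ratios (-2.15, limma adjusted p = 0.0184, beside 0.934% of all probes) and with sparse arrays as a block (-2.44, adjusted p = 0.0223, beside 0.752%). In the deposited ratios, where the median change over all probes tested was 1.665, it differed by -0.32 and 33 members were called higher with 0 lower (72.2% of all probes).

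Without MP replicate 2, the MP array that was not sparse, 6 members were called in place of 1. The share of all probes called in that omission is not given here, so the rise is not read as particular to the members. The 6 members included Gstm1 (-2.15, adjusted p = 0.0034), Ugt1a9-ps (-1.69, adjusted p = 0.0134) and Cyp3a23-3a1 (-1.32, adjusted p = 0.0345). With all arrays Gstm1 was at -1.33, 0.88 and -0.75 in MP, against 1.15, 1.05 and 1.12 in Injured 4 hr (-1.51 ± 0.46, adjusted p = 0.082). MP replicate 2 was the highest of the 3 for this gene. Ugt1a9-ps differed by -1.24 ± 0.43 (adjusted p = 0.127).

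The family 3 P450s, which oxidise steroids and many drugs, did not pass. Cyp3a23-3a1 was at -2.30, -0.78 and -0.94 in MP, against -0.45, -0.14 and -0.31 in Injured 4 hr (-1.04 ± 0.39, adjusted p = 0.165). Cyp3a18 differed by -0.69 ± 0.42 (adjusted p = 0.406, 2 MP arrays) and Cyp3a2 by 0.31 ± 0.72 (adjusted p = 0.86, 2 MP arrays). Over the 20 family 2 probes 19 changes were negative with a median of -0.35, beside -0.27 over all probes. Over all members 3 of 55 lay wholly above (5.45%), beside 6.99% of all probes, and 12 wholly below (21.8%), beside 20.4% of all probes. None of the 6 partner lists held a probe that passed in MP.

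Acetaminophen cultures had 0 of 56 enzyme probes called against Injured 4 hr, beside 62 of 4734 probes (1.31%), and 9 of the 56 had an unadjusted p under 0.05 in limma, beside 635 of the 4734. Acetaminophen is itself cleared by sulfation, glucuronidation and, in small part, oxidation by Cyp2e1. Sult1a1, the phenol sulfotransferase, was at 0.19, -0.76 and 0.15 in Acet, against 0.27, 0.04 and 0.05 in Injured 4 hr (-0.26 ± 0.39, limma adjusted p = 0.853). Ugt1a6, which glucuronidates small phenols, was at -0.56, -0.06 and -0.85 in Acet, against 0.05, -0.08 and 0.16 in Injured 4 hr (-0.53 ± 0.31, adjusted p = 0.48). These overlapped. Cyp2e1 was at -1.67, -0.57 and -0.65 in Acet, against -0.10, -0.20 and -0.05 in Injured 4 hr, without overlap (-0.85 ± 0.38, adjusted p = 0.324).

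The largest differences in Acet were again in UGTs. Ugt1a9-ps was at -2.54, -1.34 and -1.12 in Acet, against -0.10, -0.35 and 0.30 in Injured 4 hr (-1.62 ± 0.43, limma adjusted p = 0.0636). Ugt2b37 was at -2.42, -1.22 and -1.70 in Acet, against -0.17, -0.31 and -0.31 in Injured 4 hr (-1.52 ± 0.44, adjusted p = 0.0778). Both lay wholly below. Without Acet replicate 2 both were called, Ugt1a9-ps at -1.78 (adjusted p = 0.0469) and Ugt2b37 at -1.80 (adjusted p = 0.0451). Ugt2b1 was at 1.08, 0.80 and 0.33 in Acet, against -0.51, -0.19 and -0.43 in Injured 4 hr, wholly above (1.12 ± 0.33, adjusted p = 0.0965). Over all members 3 of 56 lay wholly above (5.36%), beside 6.44% of all probes, and 10 wholly below (17.9%), beside 20.3%. The deposited ratios, where the median change over all probes tested was 1.64, gave 34 members called higher and 0 lower (71.2% of all probes). None of the 6 partner lists held a probe that passed in Acet, and of 7 fibroblast and meninges marker probes 2 fell (array medians -0.63 to -0.25 in Acet and 0.03 to 0.50 in Injured 4 hr), whose part was not tested.

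The comparisons of CKIN, MP and Acet share the Injured 4 hr arrays, so their similar values for Ugt2b37, Ugt1a9-ps and Gstm1 are not independent. Between treatments, without those arrays, 0 of 45 members were called for CKIN against MP, 0 of 46 for CKIN against Acet and 0 of 54 for MP against Acet. Over all probes 0 of 3633 (0%) were called for CKIN against MP, 6 of 3750 (0.16%) for CKIN against Acet and 1 of 4379 (0.0228%) for MP against Acet. Unadjusted p values under 0.05 in limma numbered 5 among the members (552 over all probes) for CKIN against MP, 6 (654 over all probes) for CKIN against Acet and 4 (275 over all probes) for MP against Acet. In CKIN against MP 32 of 45 members had a positive change (median 0.39, against -0.14 over all probes), and 22 of 25 P450s did. The members' median in the corrected ratios was 0.15, against 0.01 over all probes, and 17 of 25 P450s were positive (median 0.16, against 0.47 in the centred ratios). In CKIN against Acet 20 of 25 P450s were positive in the centred ratios and 15 of 25 in the corrected ones. Liver marker probes had median centred changes of 0.92 for CKIN against MP (7 probes) and 0.50 for CKIN against Acet (9 probes). The contrast with all probes is therefore not read as particular to the members. Every CKIN array lay above every MP array for 9 of 45 (20%), beside 8.89% of all probes, and below for 2 (4.44%), beside 12.3%. For CKIN against Acet 8 of 46 lay wholly above (17.4%), beside 9.07% of all probes, and 2 wholly below (4.35%), beside 13.4%. For MP against Acet 4 of 54 lay wholly above (7.41%), beside 5.64%, and 6 wholly below (11.1%), beside 6.01%. These counts are from the centred ratios, and no single member passed the threshold. Cyp4b1 probe 2 had the largest change among members between CKIN and MP, at 0.50 and 0.57 in CKIN, against -1.26, -0.56 and -0.24 in MP (1.22 ± 0.47, limma adjusted p = 0.25). Probe 1 of this gene did not share that difference. It was at 0.13 on 1 CKIN array, too few for a test, and at 1.06 and -0.44 in MP.

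Indomethacin cultures have no unpooled solvent cultures among the samples, so their ratio to the ETOH pool was tested against 0, which leaves out the spread of the control. Of 41 probes tested, 0 were above 0 and 7 below (17.1%), beside 507 of 3803 probes (13.3%; 10.7% below). Ugt2b37 was at -2.54, -1.30 and -2.44 (mean -2.09 ± 0.31, limma adjusted p = 5.48e-05). It was below 0 and called in each alternative and each of the 3 omissions. Gstp1 was at -2.38, -2.37 and -1.59 (-2.11 ± 0.40, adjusted p = 0.000749) and Gsta2, an alpha class transferase, at -1.53 and -1.48 on its 2 measured arrays (-1.50 ± 0.38, adjusted p = 0.0102). These ratios lay on 1 side of 0 on each measured array.

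Gstm1 in indomethacin cultures was at -1.07, -1.15 and -1.17 (-1.13 ± 0.32, limma adjusted p = 0.0216). It missed the threshold in each of 3 omissions (adjusted p between 0.0794 and 0.0875), and with sparse arrays as a block, all 3 Indo arrays being sparse, it was 0.08. Cyp1a1 probe 1 was at -1.63, -1.53 and -0.96 (-1.38 ± 0.30, adjusted p = 0.00253), while probe 2 of the gene was at -1.39 and -0.31 and was not called. Ugt1a9-ps was at -1.63, -1.05 and -0.89 (-1.19 ± 0.31, adjusted p = 0.00963) and was lost without Indo replicate 1 (-0.97, adjusted p = 0.122). Cyp2b12 probe 1, at -1.75, 0.10 and -1.14 (-0.93 ± 0.30, adjusted p = 0.0435), was not below 0 on each array and was lost without Indo replicate 1 (-0.52, adjusted p = 0.445) or 3 (-0.82, adjusted p = 0.189). Its probes 2 (0.18) and 3 (-0.75) were measured on 1 Indo array each and not tested. Ugt2b37 (-1.84) and Gstm1 (-0.95) were still called below 0 in the corrected ratios, while Gsta2 (-0.94), Gstp1 (-0.83), Cyp1a1 probe 1 (-0.65), Cyp2b12 probe 1 (-0.60) and Ugt1a9-ps (-0.59) lost their calls.

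NS398 cultures, tested against the DMSO pool in the same way, had 2 of 57 probes above 0 and 9 below (19.3%), beside 986 of 4486 probes (22%; 10.7% above and 11.3% below). Among the P450s 7 of 31 were called below 0. In a fit of the NS398 arrays alone only 1 enzyme probe was called, and it was below 0. The share of all probes called in that fit is not given here. Cyp2f4, a lung P450, was measured on 2 arrays, at -6.48 and -0.97, which is a wide gap (-3.73 ± 0.70, limma adjusted p = 0.000809). Cyp2b2, a phenobarbital-induced P450 of rat liver, was at -1.17 and -2.33 on 2 arrays (-1.75 ± 0.37, adjusted p = 0.00285). For Cyp2f4 and Cyp2b2 only the omission of the array without a value could be tested, which says nothing about either measured array. Cyp1a1 probe 1 was at -2.07, -1.08 and -0.61 (-1.26 ± 0.30, adjusted p = 0.00536), and without NS398 replicate 1 at -0.85 (adjusted p = 0.0788). Cyp1a1 probe 2 was at -0.97, -0.41 and 0.03 and was not called. The other 4 P450 probes called below 0 were Cyp2d2 (-0.97), Cyp4b1 probe 2 (-0.97), Cyp2b12 probe 2 (-0.89) and Cyp2c6v1 (-0.76). Each of these 4 lost its call in at least 1 omission, Cyp4b1 probe 2 without NS398 replicate 1 (-0.35), Cyp2d2 without replicate 3 (-0.58), Cyp2b12 probe 2 without replicate 2 (-0.84) or 3 (-0.41) and Cyp2c6v1 without replicate 1 (-0.55) or 3 (-0.78). Cyp2b12 probe 2 was above 0 on 1 array (0.20, -1.01 and -1.87), and probes 1 (mean -0.37) and 3 (mean -1.21 on 2 arrays) of the gene were not called.

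Of the conjugating enzymes in NS398 cultures, Sult1c2 was at 0.71, 1.68 and 2.77, above 0 on each array (1.72 ± 0.38, limma adjusted p = 0.00256), and without NS398 replicate 3 it was 1.20 (adjusted p = 0.0563). Sult1a1 was at 1.01, 0.87 and 0.60 (0.83 ± 0.28, adjusted p = 0.0367) and missed the threshold in each of 3 omissions (adjusted p between 0.0654 and 0.137). Ugt2b37 was at -1.35, -1.83 and -1.13 (-1.44 ± 0.31, adjusted p = 0.00229) and Gstp1 at -2.01, -2.37 and -1.49 (-1.96 ± 0.40, adjusted p = 0.0018). These 2 kept their calls in the 3 omissions. Gstp1 (-0.93), Cyp4b1 probe 2 (-0.57), Cyp2d2 (-0.55), Cyp2b12 probe 2 (-0.48) and Cyp2c6v1 (-0.35) lost their calls in the corrected ratios, and the other 6 NS398 members kept theirs. In the deposited ratios, which had a median shift of -0.89 from the centred ones, 1 member was above 0 and 35 were below (44.1% of all probes).

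Among the partner lists Ugdh, which makes the glucuronic acid donor of the UGTs, was above 0 in NS398 cultures (2.10, limma adjusted p = 2.7e-05), the 1 of 10 conjugation and cofactor probes to pass. Over all probes 10.7% were called above 0 in NS398 and 11.3% below. Of 30 other oxidising and reducing probes 5 were above 0, including Akr1b1 (1.49), Maob (1.22), Akr1a1 (1.17) and Nqo1 (1.13), and Akr1c14 was below (-1.60). Of 21 transporter probes 3 were above 0, namely Slco2b1 (0.92), Abcb4 (0.91) and Abcc5 (0.70), the receptor Hnf4a was below (-0.98, 1 of 17), and so was Cyp11b3 (-0.91, 1 of 11 P450s of other families). Of these, Maob (0.78), Akr1a1 (1.83), Nqo1 (0.94), Slco2b1 (1.02), Abcb4 (0.88) and Abcc5 (1.52) were also above 0, and Akr1c14 (-0.69) and Cyp11b3 (-0.85) below it, in Injured 4 hr, where both channels held like RNA. In indomethacin cultures Cbr1 (1.34), Akr1b1 (1.10) and Akr7a2 (0.84) were above 0 of 24 probes, with Abcc5 (1.10, 1 of 20) and Cyp51 (1.07, 1 of 7) above and Gsr (-0.90, 1 of 9) below. Ugdh (1.94), Akr1b1 (1.20), Akr1c14 (-1.09) and Maob (0.92) kept their NS398 calls in the corrected ratios, Akr1b1 (0.90) and Akr7a2 (0.62) kept theirs in Indo, and the other partner calls were lost. Slc10a1 (1.02) and Ces2c (0.93) in NS398 and Cebpa (1.26) and Nr1i2 (0.90) in Indo passed above 0 on that scale and did not pass in the centred ratios. Fibroblast and meninges markers were above 0 for 4 of 7 probes in NS398 (array medians 1.18 to 1.56), and also in the corrected ratios (4 of 7). Blood markers were above 0 for 3 of 4 probes in NS398, and for 0 in the corrected ratios. Also above 0 in NS398 were 2 of 7 astrocyte, 2 of 7 oligodendrocyte and 1 of 9 neuron probes, and in the corrected ratios 3 neuron and 1 astrocyte probes were below 0. Of 10 liver probes 1 was above and 2 were below 0 in NS398, and of 5 endothelium probes 1 was above and 1 below. In Indo 0 of 6 fibroblast and meninges probes passed (array medians 0.08 to 0.53), 1 of 9 neuron and 1 of 4 blood probes were above 0, and 2 of 8 liver and 1 of 5 endothelium probes were below. The part of these cell types in the enzyme ratios was not tested.

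A ratio against 0 can be read beside the Injured 4 hr arrays, whose 2 channels held like RNA. There 6 enzyme probes of 59 were above 0 and 1 below (11.9%), beside 1073 of 4865 probes (22.1%; 21% above and 1.09% below). The 6 were Sult4a1 (1.86), Gsta1 (1.43), Gstm5 (1.28), Sult1c2 (1.25), Gstm1 (1.11) and Gsto1 (0.77), and Gstp1 was at -1.49 on 2 arrays. Gsto1, Sult1c2 and Gstm1 lost this call in each of 3 omissions (adjusted p between 0.0612 and 0.126) and Gsta1 in 2 (highest adjusted p 0.133), while Sult4a1 and Gstm5 kept it. Of these 6, 4 are the probes that fell in Injured 4 hr relative to Uninjured, and what sets their ratio in like RNA was not tested. Less the Injured 4 hr ratios, 2 Indo members were called, Ugt2b37 (-1.83, limma adjusted p = 0.0175) and Gstm1 (-2.23, adjusted p = 0.00896). In NS398, 2 were called on that scale, Cyp2f4 (-3.56, adjusted p = 0.035) and Gstm1 (-1.92, adjusted p = 0.0243), while Ugt2b37 was at -1.17, Sult1c2 at 0.47 and Gstp1 at -0.47. Gstp1 in Indo was at -0.62. The pools differ between these groups (ETOH or DMSO against PBS), and the share of all probes called less the Injured 4 hr ratios is not given here. In the corrected ratios 1 Indo member was above and 2 below 0 (beside 9.94% of all probes called), and 5 NS398 members were above and 6 below (beside 12.9%).

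**Figure D5:**
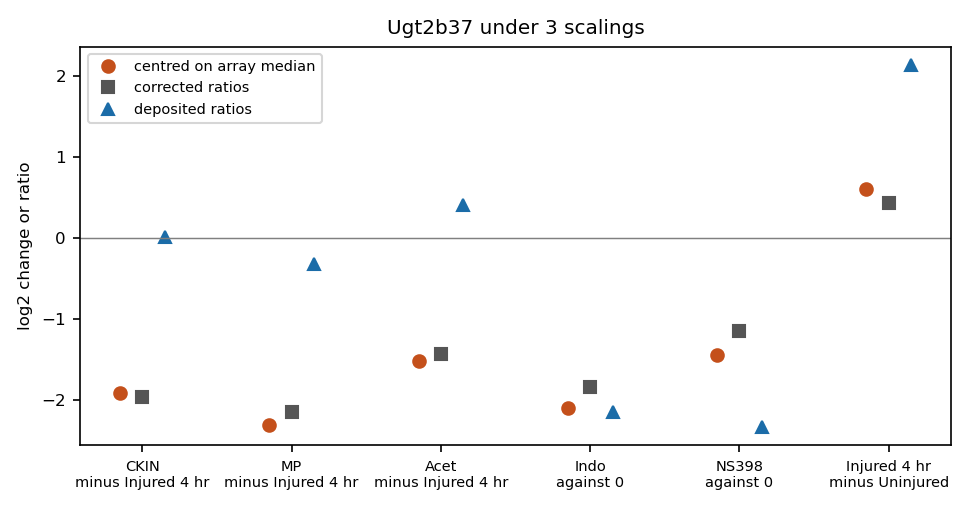
Log2 change or ratio of Ugt2b37 in 6 comparisons (x axis), from ratios centred on the array median, from corrected ratios and from deposited ratios (symbols). Centred and corrected values lie between -2.31 and -1.15 in the 5 treatment comparisons, while the deposited values of CKIN, MP and Acet lie between -0.32 and 0.41.

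Ugt2b37 was the 1 member called in 4 of the 5 treatment comparisons, and its value moved with the scaling as the plot of its 3 scalings shows. On the centred scale every treatment array lay at or below -1.13, every Injured 4 hr array at or above -0.31, and the Uninjured arrays were at -0.93, -0.92 and -0.77. Injured 4 hr minus Uninjured was 0.61 ± 0.44 for this probe (limma adjusted p = 0.374). The deposited ratios were -2.49, -2.96 and -1.91 in CKIN, -1.19, -4.86 and -2.32 in MP, and -1.74, -2.01 and -2.41 in Acet, against -2.44, -2.52 and -2.44 in Injured 4 hr. On that scale CKIN and MP overlapped Injured 4 hr and Acet lay just above it. The median deposited change over all probes tested was 1.54 in CKIN, 1.665 in MP and 1.64 in Acet. Centring took off 1.93, 1.98 and 1.93 at the median over probes, which is more. The centred changes of all probes thus had medians of -0.38 in CKIN, -0.27 in MP and -0.21 in Acet.

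Replicate arrays spread alike for members and other probes. The median SD over arrays of members measured on all 3 was 0.478 in CKIN, 0.502 in MP, 0.417 in Acet, 0.364 in Indo and 0.49 in NS398, and 0.225 in Injured 4 hr and 0.294 in Uninjured. Other probes had 0.432, 0.492, 0.477, 0.37, 0.511, 0.235 and 0.293 in the same order. Members were measured on 71.2% of CKIN and 70.6% of Indo spots, against 98.9% of Injured 4 hr spots. Gstk1 was measured on 5 arrays only and entered 1 test. No probe sequences were used, and members of the Cyp2b, Cyp2c, Cyp2d, Ugt1a, Ugt2b, Sult2a, Gsta and Gstm groups have near-identical paralogs, so that a probe may report more than its named gene. Cyp2b12 has 3 probes, and its changes in CKIN against Acet were 0.89 for probe 2 and 1.30 for probe 3; Cyp1a1 and Cyp4b1 have 2 each.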

How the data were processed

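The values the authors deposited are log2 ratios of sample over pooled culture RNA, with blank cells for missing spots. Base 2 is inferred from recurring values of small whole-number ratios. The direction, sample over pool, is taken from the order of names in the labels and is likely rather than stated. How the spots were scanned, dyed, filtered, background-corrected or normalized is not given in the sources used here. Gene names come from GEO's platform annotation, in which 4423 probes have 1 symbol, 2 have several and 951 have none, updated by gene ID against RefSeq (57 of the 59 enzyme probes matched). The 52 Gapdh spots were averaged.

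Each array was centred on its median. limma 3.58.1 in R 4.3.3 fitted all 21 arrays with 1 coefficient per group, and moderated tests were made for the 10 comparisons on probes with at least 2 arrays in each compared group. P-values were adjusted over all probes by Benjamini-Hochberg, at 0.05. The fit was tested on simulated data, with normal noise whose spread per probe was the same in all groups and with no curve or plate effect. That simulation does not cover the unequal spreads of these groups or the ratios that differ from 0 in like RNA. Named genes were all members past the threshold, up to 5 more in each direction where fewer than 6 passed, a set panel, and listed partners past it. The members and lists were chosen with earlier results of these data known.

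Alternatives were the deposited ratios, quantile normalization, ratios corrected by a loess curve (span 0.4) on the mean Injured 4 hr ratio and by source plate, values on every array, the compared groups alone, sparse arrays (over 1100 missing spots) as a block, the replicate number as a block, and each array left out. Subtraction of the Injured 4 hr ratios and centring on each source plate were added after seeing the data. Depth does not apply to arrays, and their number limits the precision.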

Additional observations from a re-analysis of the deposited data

How the results depend on the processing

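All values here are limma calls among the enzyme probes or log2 changes. The counts stand without the share of all probes called in the same setting, except where the Results give that share. The settings act on all probes, so a count alone is no result about the enzymes. Of the named members' values under alternatives, 1099 kept direction and side of the threshold, 154 lost and 52 gained a call, and 62 changed sign; the causes were not tested unless the alternative's construction shows them. For Injured 4 hr minus Uninjured (5 calls), the count was 39 in the deposited ratios, 0 after quantile normalization, 1 in the corrected ratios, 26 with the compared groups alone (15 higher, 11 lower), 11 with sparse arrays as a block (4 higher, 7 lower), 3 with source plates centred, and 1 to 4 with single arrays left out. For CKIN (5 calls) it was 35 in the deposited ratios, 1 in the corrected ratios, 0 with sparse arrays as a block and 2 to 3 with arrays left out. For MP (1 call) it was 33 in the deposited ratios, 0 with the compared groups alone, 2 with the replicate block and 0 to 6 with arrays left out, 6 being without MP replicate 2. For Acet (0 calls) it was 34 in the deposited ratios, 2 with the compared groups alone and 0 to 2 with arrays left out. For Indo (7 calls) it was 29 after quantile normalization, 3 in the corrected ratios, 3 with plates centred, 2 less the Injured 4 hr ratios and 3 to 5 with arrays left out. For NS398 (11 calls) it was 36 in the deposited ratios, 49 after quantile normalization, 1 with the group alone, 2 less the Injured 4 hr ratios and 4 to 8 with arrays left out. For Injured 4 hr against 0 (7 calls) it was 57 in the deposited ratios, 52 after quantile normalization, 18 with the group alone and 2 to 3 with arrays left out. The 3 comparisons between treatments had 0 calls in each alternative run, also with arrays left out. Splits by direction moved by over 10 percentage points in several settings. For Injured 4 hr minus Uninjured (1 higher, 4 lower) all 39 calls in the deposited ratios were higher, and the 1 in the corrected ratios and the 3 with plates centred were lower. In CKIN, with 5 lower, there were 2 higher and 3 lower after quantile normalization and 1 higher and 3 lower with plates centred, and in CKIN, MP and Acet all calls in the deposited ratios were higher. Indo had 4 higher and 2 lower with sparse arrays as a block and 1 higher and 2 lower in the corrected ratios. NS398 (2 higher, 9 lower) had 1 higher and 35 lower in the deposited ratios, 1 higher and 48 lower after quantile normalization, 5 higher and 6 lower in the corrected ratios, 3 higher and 7 lower with sparse arrays as a block and 0 higher and 2 lower less the Injured 4 hr ratios. Injured 4 hr against 0 (6 higher, 1 lower) had 0 higher and 57 lower in the deposited ratios, 0 higher and 52 lower after quantile normalization and 6 higher and 12 lower with the group alone.

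Signs changed in the deposited ratios, which are uncentred. For Injured 4 hr minus Uninjured Gstm5 was then 0.058, Sult4a1 0.56, Gsta4 0.58, Cyp2j3 0.59, Cyp2c12 0.59, Ugt2b1 0.61 and Gsta1 1.05. For CKIN Ugt2b37 was 0.012, Gstm5 0.52, Ugt1a9-ps 0.67, Gsta1 0.76, Cyp2e1 0.85, Sult1c2 1.07, Sult4a1 1.19, Cyp2j3 1.30 and Cyp1a1 probe 1 1.48. For MP Gstm1 was 0.48, Cyp2g1 0.59, Ugt1a9-ps 0.74, Cyp3a23-3a1 0.94, Gsta2 0.98 and Cyp3a18 1.00. For Acet Ugt1a9-ps was 0.31, Ugt2b37 0.41, Ugt2b7 0.48, Cyp1a1 probe 1 0.85, Gstm1 0.86, Cyp2e1 1.08, Ugt1a6 1.40 and Sult1a1 1.67. For NS398 Sult1a1 was -0.067, and for Injured 4 hr against 0 Gsto1 was -1.43, Gstm1 -1.10, Sult1c2 -0.96, Gstm5 -0.92, Gsta1 -0.77 and Sult4a1 -0.35. After quantile normalization Sult4a1 was 0.17 and Gsta1 0.22 for Injured 4 hr minus Uninjured, and Gsto1 -0.30 and Gstm1 -0.059 for Injured 4 hr against 0. In the corrected ratios Sult4a1 was 0.16 and Gsta1 0.49 for Injured 4 hr minus Uninjured. Gstm5 was 0.12, Gsta1 0.15, Sult1c2 0.21 and Sult4a1 0.51 for CKIN, Gsta1 0.28 and Sult4a1 0.30 for CKIN minus Acet, and Sult1c2 0.048 for CKIN minus MP. With sparse arrays as a block Sult1c2 was 0.58, Sult4a1 0.64 and Cyp1a1 probe 1 0.58 for CKIN, Cyp3a2 -0.46 for MP, Gstm1 0.076 for Indo and Sult4a1 0.55 for CKIN minus Acet. With arrays left out, Gsta1 lay between -1.69 and 0.16 for Injured 4 hr minus Uninjured (0.10 without Uninjured replicate 1, 0.16 without replicate 3), Cyp3a2 between -0.050 and 0.63 for MP (lowest without Injured 4 hr replicate 2), Sult1a1 between -0.42 and 0.054 for Acet and Sult4a1 between -0.68 and 0.12 for CKIN minus Acet (both highest without Acet replicate 2), and Sult1c2 between -1.13 and 0.10 for CKIN minus MP (highest without MP replicate 2).

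Replicate numbers were not taken to pair the samples, since no compared groups had same-numbered arrays' deviations correlated above 0.1 in all 3 pairs (-0.231 to 0.604 over 1624 probes). MP and Acet had correlations of 0.442 for replicate 1, 0.604 for replicate 2 and 0.0227 for replicate 3, and with the block 0 members were called between them. With the replicate number as a block the counts were 6 for Injured 4 hr minus Uninjured, 4 for CKIN, 2 for MP and 0 for Acet. The block has no meaning for ratios against 0, and the correction is 0 by construction for Injured 4 hr against 0, so neither was run there. Groups of 3 arrays, missing spots in the treatments and ratios that are not levels limit these values.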
